A study of Mus musculus with 21 samples.

Results

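Microglia identity and activation genes were followed through hippocampal RNA of ethanol-treated mice with and without a knockdown of Acss2. The set was given as a list of 35 gene symbols, holding homeostatic and activated microglia genes and leaving out complement and MHC genes. All 35 symbols were found among the 24498 genes of the counts table. By role they comprised 10 homeostatic genes, 5 activated genes, 7 receptors and adapters, 2 transcription factors, 4 lysosomal and secreted enzyme genes and 7 leukocyte surface and motility genes.

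RNA was sequenced from the hippocampus of male mice aged 8 weeks, in 21 libraries. The knockdown arm received AAV2/9 U6.shACSS2.CMV.EGFP, a viral vector that drives a short hairpin RNA against Acss2, the enzyme that makes acetyl-CoA from acetate. Ethanol was given by intraperitoneal injection at 2 g/kg as a 20% solution in saline. The ethanol-treated libraries of the knockdown arm numbered 5 from dorsal, 4 from ventral and 1 from total hippocampus, and those of the control arm 3 from dorsal and 4 from ventral hippocampus. Without ethanol there were 2 dorsal knockdown and 2 dorsal control libraries, first published in an earlier series. The treatment protocol places the vector in the dorsal hippocampus by stereotaxic injection, whereas the series text reads as systemic delivery. No vector or surgery is described for the control arm, so an effect of the knockdown and an effect of vector and surgery cannot be told apart. The time between ethanol and dissection is not given, and the labels do not say whether the replicates were separate animals. The p-values therefore measure only the spread between these libraries.

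Microglia are the resident macrophages of brain tissue. They depend on the receptor Csf1r and on the transcription factors Spi1 (PU.1) and Irf8. At rest they express P2ry12, a purinergic receptor that guides their processes, Tmem119, a surface protein, and Sall1, a transcription factor that keeps their identity. In ageing, demyelination and amyloid models in mice, microglia lower such homeostatic genes and raise Cst7, Clec7a, Itgax, Lpl and Axl, in part through signalling by Trem2 and its adapter Tyrobp. Lpl, Axl and Mertk are also expressed by other brain cells. In bulk RNA, fewer cells of a type and less RNA per cell cannot be told apart.

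Promoter sequences of Clec7a, Trem2 and P2ry13 are shown because they hold letters of PU.1 sites and because the genes stand for the activated, receptor and homeostatic roles. P2ry13, a purinergic receptor, was added for contrast after its values were seen. Each sequence covers the 250 bases before the RefSeq start on build GRCm38.p6, read 5′ to 3′ on the strand of the gene, and capitals mark the motif. In Clec7a (chr6:129472780-129473029, minus strand) the capitals are the reverse complement of the PU.1 and IRF composite, GGAA and GAAA separated by 2 bases. In Trem2 (chr17:48346151-48346400, plus strand) they are the reverse complement of the PU.1 letters GAGGAAG, and in P2ry13 (chr3:59210883-59211132, minus strand) they are GAGGAAG as written.
Clec7a: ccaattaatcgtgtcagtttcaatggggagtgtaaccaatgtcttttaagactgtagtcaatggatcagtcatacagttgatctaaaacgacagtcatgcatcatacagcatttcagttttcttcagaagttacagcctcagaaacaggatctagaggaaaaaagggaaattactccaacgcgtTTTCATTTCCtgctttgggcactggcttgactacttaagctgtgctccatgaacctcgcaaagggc
Trem2: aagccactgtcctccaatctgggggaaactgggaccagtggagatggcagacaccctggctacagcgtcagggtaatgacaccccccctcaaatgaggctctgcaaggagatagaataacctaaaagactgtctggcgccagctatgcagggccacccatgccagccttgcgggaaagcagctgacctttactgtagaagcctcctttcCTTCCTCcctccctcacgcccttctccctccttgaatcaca
P2ry13: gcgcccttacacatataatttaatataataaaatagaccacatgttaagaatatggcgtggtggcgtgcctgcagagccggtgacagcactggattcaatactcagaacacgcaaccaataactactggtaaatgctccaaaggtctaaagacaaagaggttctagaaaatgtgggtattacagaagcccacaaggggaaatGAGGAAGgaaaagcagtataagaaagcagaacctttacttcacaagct
These windows overlapped 0 annotated exons of GENCODE. RefSeq promoters were matched for 26 of the 35 genes. GAGGAAG, searched on both strands, was present for 7 of these 26 genes (26.9%) and for 12% of all 27025 genes with a promoter. The composite, also searched on both strands, was present for 2 of the 26 genes (7.69%), Clec7a and Fcgr2b, and for 2.68% of all genes. The motifs were searched separately and can overlap in GGAA, and a match describes letters, not binding.

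The comparisons used the 14 dorsal and ventral ethanol libraries with over 1000000 gene reads. These were dorsal knockdown 1 to 4, dorsal control 1 to 3, ventral knockdown 2 to 4 and ventral control 1 to 4. They and the total library held 2819837 to 13240179 gene reads. Levels are counts per 1000000 gene reads after TMM scaling (CPM). Rn45s, ribosomal RNA precursor, took 0.625% to 20.7% of gene reads in these 15 libraries. Only 5021 gene reads were counted in dorsal knockdown 5 and 8744 in ventral knockdown 1, too few for levels. Acss2 (ENSMUSG00000027605.18, chromosome 2, 155517948 to 155585724) stood at 44.2, 40.8, 18 and 19.3 CPM in dorsal knockdown 1 to 4, against 53.0, 58.7 and 52.8 CPM in dorsal control 1 to 3. It stood at 28.9, 63.5 and 36.6 CPM in ventral knockdown 2 to 4, against 50.2, 54.2, 47.5 and 48.1 CPM in ventral control 1 to 4. The dorsal groups did not overlap (log2 fold change -0.84 ± 0.32 SE, edgeR adjusted p = 0.964). The ventral groups overlapped (-0.21 ± 0.32 SE, edgeR adjusted p = 1.00), and the library labelled ventral knockdown 3 was above all 4 ventral controls, against its label. The libraries labelled dorsal knockdown 1 and 2 were closest to control in Acss2.

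Per kilobase of exon, levels within the set differed widely in dorsal controls. Ctss, the lysosomal protease cathepsin S, was highest at 34.4 ± 6.31 CPM per kb (SD, n = 3). Tyrobp followed at 19.4 ± 3.31, Csf1r at 15.4 ± 3.35 and Cx3cr1, the fractalkine receptor, at 11.5 ± 2.84 CPM per kb. The ranges of Tyrobp and Csf1r overlapped over these libraries, and that of Ctss lay above both. Homeostatic P2ry12 stood at 9.78 ± 1.93, Tmem119 at 8.62 ± 1.10 and Sall1 at 5.75 ± 1.89 CPM per kb. The 3 lowest genes were the activated Clec7a at 0.0779 ± 0.0928, Cst7 at 0.0559 ± 0.0501 and Itgax at 0.0195 ± 0.0337 CPM per kb. The activated genes Axl and Lpl, at 11.2 ± 0.89 and 2.51 ± 1.21 CPM per kb, stood far above them.

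The first comparison asked how the set differed between knockdown and control in the dorsal hippocampus after ethanol. Of the 35 genes, 34 had a positive log2 fold change, against 53.3% of all 14578 tested genes, and Mertk was the exception. The median log2 fold change was 1.12 over the 35 genes and 0.03 over all tested genes. None was called: edgeR called 0 of 14578 genes (0.0%) at an adjusted p under 0.05, and DESeq2 called 11 genes, of which 0 were members. At an unadjusted p under 0.05, 20 of the 35 genes (57.1%) were higher in dorsal knockdown, against 3.39% of all tested genes, and 0 were lower, against 1.19%. The 4 knockdown libraries lay entirely above the 3 controls for 13 of the 35 genes (37.1%), against 3.77% of all tested genes, and entirely below them for 0, against 3.25%. Of these 13, Cst7, Itgax and Cd52 stood apart in knockdown 1 by a few reads only. The 20 include Cst7, Itgax, Clec7a and Cd52, which passed the low-count filter with 0 dorsal controls above its level of 1.13 CPM. Without dorsal control 3 the count at an unadjusted p under 0.05 was 13, against 2.04% of all tested genes. The count of genes with no overlap was 24 without dorsal knockdown 1, against 9.38% of all tested genes, and 20 without dorsal control 1, against 6.45%.

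**Figure D1:**
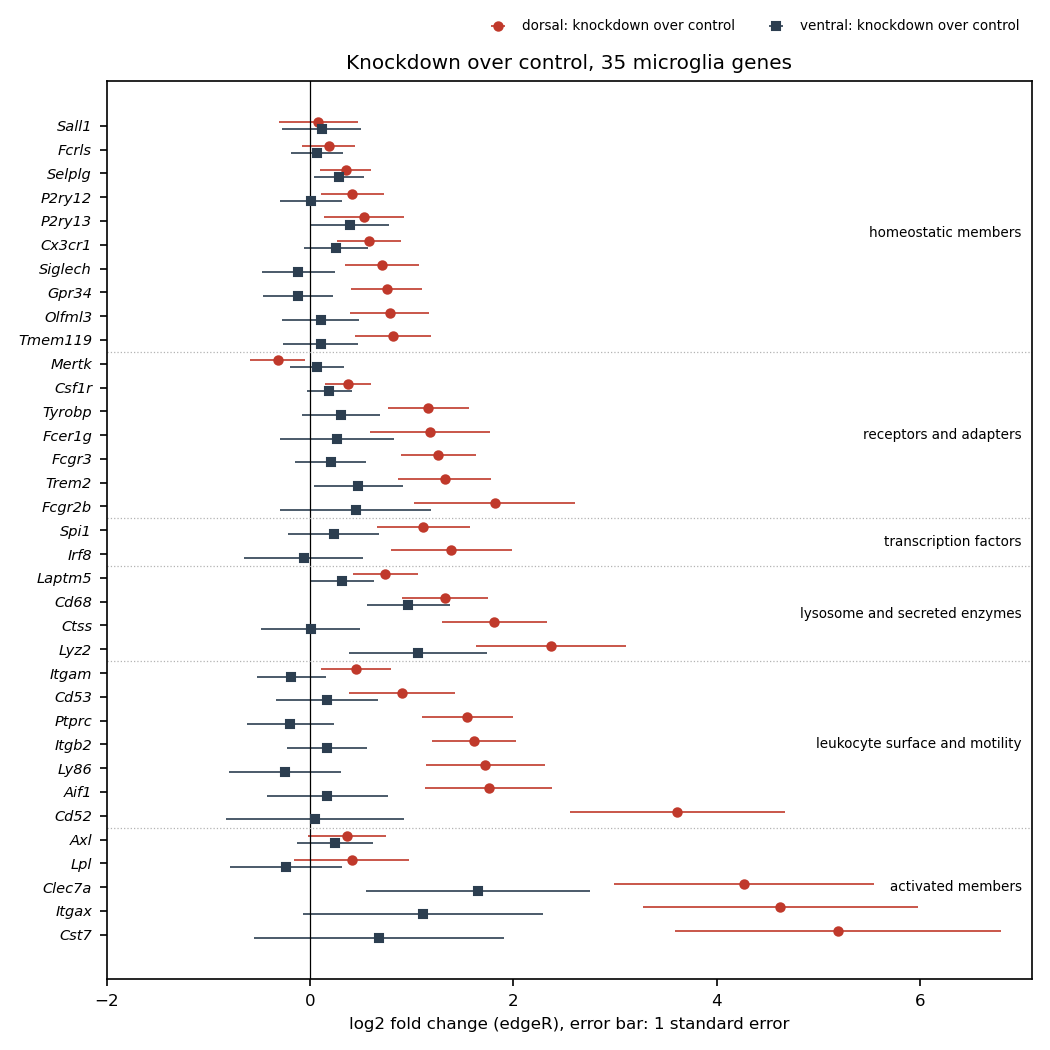
Log2 fold change of knockdown over control for each of the 35 genes in the dorsal (circles) and ventral (squares) hippocampus after ethanol, grouped by role, with bars of 1 standard error from edgeR. In the dorsal comparison 34 of 35 genes lie right of 0, with Cst7, Itgax, Clec7a and Cd52 farthest out, while the ventral values have a median of 0.17 and reach 1.65 for Clec7a, 1.11 for Itgax and 1.06 for Lyz2.

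The homeostatic genes lay modestly above control in dorsal knockdown. All 10 had positive values, with a median log2 fold change of 0.56 (0.35 without dorsal control 3). Of the 10, 2 (Tmem119 and Gpr34, a receptor for lysophosphatidylserine) had an unadjusted p under 0.05, against 3.39% of all tested genes. P2ry12 (ENSMUSG00000036353.13, chromosome 3, 59216272 to 59262871, minus strand) stood at 31.6, 42.4, 29.7 and 29.4 CPM in dorsal knockdown 1 to 4, against 24.1, 30.2 and 20.5 CPM in dorsal control 1 to 3. The groups overlapped through control 2 (log2 fold change 0.42 ± 0.31 SE, edgeR adjusted p = 0.999). P2ry12 lies within Med12l on the opposite strand, and the strand setting of the counting is not given. Cx3cr1, P2ry13, Gpr34, Csf1r, Mertk, Fcgr2b and Cd52 also overlap genes on the opposite strand. Tmem119 (ENSMUSG00000054675.5, chromosome 5, 113793729 to 113800516, minus strand) stood at 25.5, 27.5, 57.7 and 30.0 CPM in knockdown, against 19.6, 22.7 and 17.6 CPM in control. Its groups did not overlap, and knockdown 3 was far above the others (log2 fold change 0.82 ± 0.38 SE, edgeR adjusted p = 0.999).

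Sall1 (ENSMUSG00000031665.7, chromosome 8, 89027235 to 89044162, minus strand) differed least of the homeostatic genes. It stood at 35.1, 17.7, 37.6 and 35.7 CPM in dorsal knockdown, against 41.0, 28.5 and 21.3 CPM in dorsal control. Knockdown 2 was the lowest library of both groups, and the groups overlapped (log2 fold change 0.08 ± 0.39 SE, edgeR adjusted p = 0.999). Its sign was negative without dorsal knockdown 3 (-0.02) or without dorsal control 3 (-0.11). Cx3cr1 averaged 77.2 ± 22.4 CPM in dorsal knockdown and 51.9 ± 12.8 CPM in dorsal control (SD, n = 4 and 3). Olfml3, a secreted matrix protein, averaged 26.7 ± 12.1 CPM in knockdown and 15.5 ± 0.392 CPM in control, with no overlap. The other homeostatic genes were Siglech, a sialic acid-binding lectin (log2 fold change 0.71), P2ry13 (0.53), Selplg, a selectin ligand (0.35), and Fcrls, an Fc receptor-like protein (0.18), all with overlapping groups.

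The 5 activated genes split by level and by size of difference. Cst7, Itgax and Clec7a were nearly absent from dorsal controls and had the largest fold changes of the set, whereas Axl and Lpl were plentiful in both arms and differed little. Cst7, cystatin F, an inhibitor of lysosomal proteases (ENSMUSG00000068129.5, chromosome 2, 150570415 to 150578944), stood at 0.284, 2.13, 6.98 and 3.35 CPM in dorsal knockdown 1 to 4, against 0, 0.0953 and 0.0701 CPM in dorsal control 1 to 3. Knockdown 1 held 2 reads and was not resolved from control 1, where 3 reads equal 1.34 CPM, and the other knockdown libraries were above that level. There were 113 reads in knockdown and 2 in control, a ratio of scaled reads of 44.9 with a 95% counting interval of 12.1 to 375. The edgeR log2 fold change was 5.19 ± 1.60 SE (adjusted p = 0.954).

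Itgax, the CD11c integrin chain (ENSMUSG00000030789.9, chromosome 7, 128129547 to 128150657), stood at 0.427, 1.07, 6.44 and 7.09 CPM in dorsal knockdown, against 0, 0 and 0.281 CPM in dorsal control. Knockdown 3 and 4 carried most of the signal, and knockdown 1 and 2 were below the level of 3 reads in control 1. The 126 and 4 reads gave a ratio of 25.0 (9.54 to 93.3) and a log2 fold change of 4.62 ± 1.36 SE (edgeR adjusted p = 0.954). Clec7a, the beta-glucan receptor dectin-1 (ENSMUSG00000079293.11, chromosome 6, 129461591 to 129472779, minus strand), stood at 0.427, 3.59, 7.09 and 9.77 CPM in dorsal knockdown, against 0, 0.476 and 0.140 CPM in dorsal control. Knockdown 1 lay within the control range, and the other knockdown libraries lay above it. The 178 and 7 reads gave a ratio of 20.2 (9.61 to 51.0) and a log2 fold change of 4.27 ± 1.28 SE (edgeR adjusted p = 0.954).

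These 3 genes passed the low-count filter through few libraries. Each was above the filter level of 1.13 CPM in 5 of the 14 libraries, which were 3 dorsal knockdown, 1 ventral knockdown, 0 dorsal control and 1 ventral control library. They thus had to be high in the groups where they were, and their fold changes are a description. Intervals cover counting error only.

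Axl, a receptor tyrosine kinase for apoptotic cells (ENSMUSG00000002602.16, chromosome 7, 25757273 to 25788705, minus strand), stood at 55.0, 36.0, 113 and 87.6 CPM in dorsal knockdown, against 53.4, 61.7 and 54.6 CPM in dorsal control. Knockdown 3 and 4 were above, and knockdown 2 below, all controls (log2 fold change 0.36 ± 0.38 SE, edgeR adjusted p = 0.999). Lpl, lipoprotein lipase (ENSMUSG00000015568.16, chromosome 8, 68880491 to 68907448), stood at 40.3, 35.8, 38.1 and 24.0 CPM in dorsal knockdown, against 34.3, 11.7 and 33.0 CPM in dorsal control. Its groups overlapped (log2 fold change 0.41 ± 0.57 SE, edgeR adjusted p = 0.999).

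**Figure D2:**
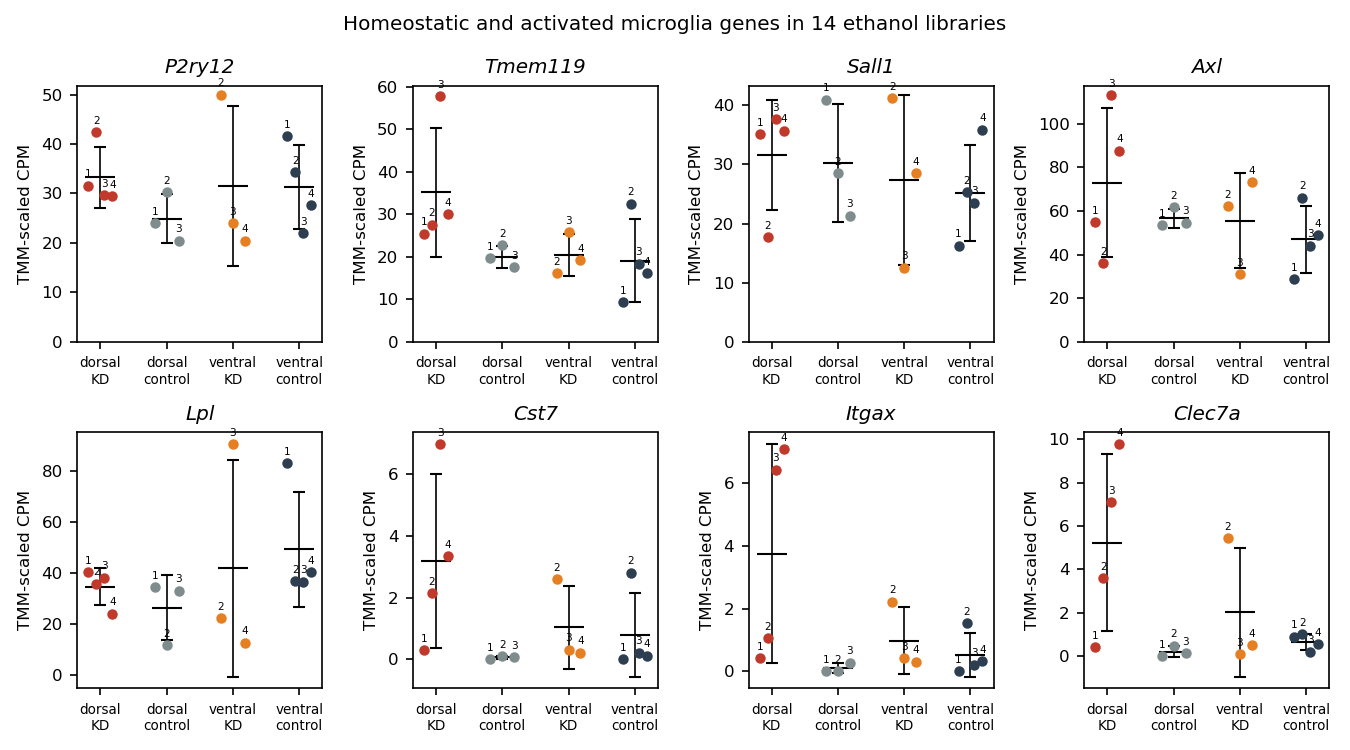
CPM of 3 homeostatic genes (P2ry12, Tmem119, Sall1) and the 5 activated genes in each of 14 ethanol libraries (points, numbered by replicate), with the group mean and SD (bars). Cst7, Itgax and Clec7a are near 0 in dorsal controls and reach 6.98, 7.09 and 9.77 CPM in dorsal knockdown, while P2ry12 and Sall1 overlap between all groups.

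Receptors and adapters were higher in dorsal knockdown for 6 of 7 genes, 4 of them at an unadjusted p under 0.05, against 3.39% of all tested genes. Trem2, a lipid-sensing receptor, averaged 27.3 ± 10.2 CPM in dorsal knockdown and 11.3 ± 4.73 CPM in dorsal control (SD, n = 4 and 3; log2 fold change 1.32). Tyrobp, its signalling adapter, averaged 28.9 ± 12 CPM in knockdown and 12.9 ± 2.21 CPM in control (1.16). The IgG receptors Fcgr3 and Fcgr2b had no overlap between groups, with log2 fold changes of 1.26 and 1.81; they are related in sequence, so shared reads could blur them. Fcer1g, the common Fc receptor gamma chain, had 1.18 with overlap. Csf1r averaged 115 ± 21.1 CPM in knockdown and 88.9 ± 19.3 CPM in control (0.37). Mertk, a receptor for apoptotic cells, averaged 39.5 ± 9.66 CPM in knockdown and 49.3 ± 7.81 CPM in control (-0.32).

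Both transcription factors had an unadjusted p under 0.05, against 3.39% of all tested genes on the higher side. Irf8 stood at 7.11, 9.5, 23.5 and 13.9 CPM in dorsal knockdown, against 5.79, 6.29 and 3.58 CPM in dorsal control, without overlap (log2 fold change 1.39 ± 0.60 SE, edgeR adjusted p = 0.999). Spi1 averaged 7.43 ± 3.80 CPM in knockdown and 3.59 ± 1.23 CPM in control (1.12), with overlap through knockdown 1.

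All 4 lysosomal and secreted enzyme genes had an unadjusted p under 0.05, against 3.39% of all tested genes on the higher side. Ctss stood at 59.7, 177, 256 and 163 CPM in dorsal knockdown, against 48.1, 54.4 and 37.4 CPM in dorsal control. The groups did not overlap, and knockdown 1 was just above the controls (log2 fold change 1.81 ± 0.52 SE, edgeR adjusted p = 0.954). Cd68, a lysosomal membrane glycoprotein, stood at 11.1, 16.6, 24.1 and 18.2 CPM in knockdown, against 4.45, 6.76 and 8.98 CPM in control, again without overlap (1.33 ± 0.42 SE, edgeR adjusted p = 0.954). Lyz2, lysozyme, stood at 4.55, 21.8, 47.1 and 37.2 CPM in knockdown, against 3.12, 6.29 and 5.89 CPM in control. Knockdown 1 lay within the control range (2.37 ± 0.74 SE, edgeR adjusted p = 0.954), and Lyz2 has a near-identical paralog, Lyz1. Laptm5, a lysosomal transmembrane protein, had a log2 fold change of 0.74.

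Leukocyte surface and motility genes were higher in dorsal knockdown for 7 of 7 genes. Of these, 5 had an unadjusted p under 0.05, against 3.39% of all tested genes. Itgb2, the CD18 integrin chain, had the smallest p of the set and stood at 8.39, 8.63, 20.7 and 17.9 CPM in dorsal knockdown, against 5.34, 4.76 and 3.79 CPM in dorsal control. All 4 knockdown libraries were above all controls (log2 fold change 1.61 ± 0.41 SE, edgeR adjusted p = 0.954). Ptprc, the CD45 phosphatase, stood at 5.83, 5.43, 13.6 and 11.8 CPM in knockdown, against 4.01, 3.33 and 2.38 CPM in control (1.55 ± 0.45 SE, edgeR adjusted p = 0.954). Its groups did not overlap either.

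Ly86, a partner of the receptor CD180, stood at 7.97, 22.3, 34.0 and 14.6 CPM in dorsal knockdown, against 4.90, 6.67 and 6.03 CPM in dorsal control (log2 fold change 1.72 ± 0.59 SE, edgeR adjusted p = 0.954). Cd52, a small surface glycoprotein, stood at 0.996, 8.24, 14.2 and 5.35 CPM in knockdown, against 0.891, 0.476 and 0.561 CPM in control. Knockdown 1, with 7 reads, was not resolved from the controls, and the other knockdown libraries were well above it. The 262 and 15 reads gave a ratio of 13.9 (8.26 to 25.2), and Cd52 passed the low-count filter through 8 libraries, 0 of them dorsal controls. Aif1, the actin-binding protein IBA1, averaged 10.4 ± 7.27 CPM in knockdown and 3.03 ± 0.334 CPM in control (1.76). Cd53, a tetraspanin, and Itgam, the CD11b integrin chain, had values of 0.90 and 0.45 with overlap.

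The same comparison in the ventral hippocampus, where no clear loss of Acss2 was seen, gave smaller values. Of the 35 genes 28 had positive values, against 48.2% of all tested genes, with a median log2 fold change of 0.17, against -0.01 over all tested genes. edgeR called 0 of 14578 genes (0.0%), DESeq2 called 35 genes with 0 members among them, and 1 of the 35 genes (2.86%), Cd68, had an unadjusted p under 0.05 on the higher side, against 1.61% of all tested genes, and 0 on the lower side, against 2.46%. For 0 of the 35 genes did the ventral groups stand apart on the higher side, against 1.05% of all tested genes, or on the lower side, against 1.63%. The median was -0.15 without ventral knockdown 2, 0.27 without the library labelled ventral knockdown 3 and 0.47 without ventral control 2. Without ventral control 2 the groups stood apart on the higher side for 6 of the 35 genes, against 2.23% of all tested genes. Without the library labelled ventral knockdown 3 they stood apart for 2 on the higher and 1 on the lower side, against 7.57% and 6.65% of all tested genes.

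P2ry12 stood at 49.99, 24.1 and 20.5 CPM in ventral knockdown 2 to 4, against 41.6, 34.3, 21.9 and 27.6 CPM in ventral control 1 to 4. Tmem119 stood at 16.2, 25.8 and 19.2 CPM in ventral knockdown, against 9.40, 32.5, 18.4 and 16.1 CPM in ventral control, and Sall1 at 41.2, 12.5 and 28.6 CPM in ventral knockdown, against 16.3, 25.3, 23.5 and 35.9 CPM in ventral control. For all 3 genes the control range crossed the knockdown range. Cst7 stood at 2.59, 0.311 and 0.208 CPM in ventral knockdown, against 0, 2.81, 0.214 and 0.110 CPM in ventral control. Itgax stood at 2.22, 0.415 and 0.311 CPM in ventral knockdown, against 0, 1.53, 0.214 and 0.330 CPM in ventral control. Each was high in 1 library of each arm, ventral knockdown 2 and ventral control 2.

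Clec7a stood at 5.43, 0.104 and 0.519 CPM in ventral knockdown, against 0.904, 1.02, 0.214 and 0.549 CPM in ventral control (log2 fold change 1.65 ± 1.10 SE, edgeR adjusted p = 1.00). Its value was -0.96 without ventral knockdown 2. Axl stood at 62.2, 31.1 and 73.3 CPM in ventral knockdown, against 28.7, 66.2, 44.1 and 48.9 CPM in ventral control. Lpl stood at 22.1, 90.4 and 12.7 CPM in ventral knockdown, against 82.9, 36.8, 36.6 and 40.3 CPM in ventral control, so that 1 library in each arm stood far above the rest. Cd68 stood at 24.4, 6.63 and 10.6 CPM in ventral knockdown, against 6.51, 9.97, 5.56 and 6.59 CPM in ventral control (0.97 ± 0.41 SE, edgeR adjusted p = 1.00). Lyz2 stood at 32.6, 4.56 and 15.1 CPM in ventral knockdown, against 5.42, 14.3, 4.81 and 9.23 CPM in ventral control (1.06 ± 0.67 SE, edgeR adjusted p = 1.00). Ventral knockdown 2 was the highest library for both genes, and the groups overlapped.

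The difference between the dorsal and ventral knockdown effects was tested directly. It was positive for 33 of the 35 genes, against 54.9% of all tested genes, with a median of 0.85 on the log2 scale, against 0.05 over all tested genes. edgeR called 0 of 14578 genes (0.0%), and DESeq2 called 9, of which 0 were members. Of the 35 genes 6 (17.1%) had an unadjusted p under 0.05 on the positive side, against 2.79% of all tested genes, and 0 on the negative side, against 1.82%. The 6 were Ptprc, Cd52, Itgb2, Ctss, Ly86 and Cst7. Of these, Cd52 and Cst7 passed the low-count filter with 0 dorsal controls above its level, so their values are a description. The smallest p was that of Ptprc (difference 1.74 ± 0.62 SE, edgeR adjusted p = 0.998), followed by Cd52 (3.56 ± 1.37 SE) and Itgb2 (1.45 ± 0.56 SE), both at the same adjusted p. No homeostatic gene was among the 6. The count was 2 without ventral control 2, without ventral knockdown 4 or without dorsal knockdown 3, against 2.29%, 2.20% and 1.77% of all tested genes. It was 10 without dorsal knockdown 1 and 12 without ventral knockdown 2, against 3.35% and 3.39%.

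In the ventral libraries Ptprc stood at 6.91, 2.70 and 3.53 CPM in knockdown 2 to 4, against 5.06, 7.16, 3.53 and 4.50 CPM in control 1 to 4. Itgb2 stood at 9.5, 6.12 and 5.19 CPM in ventral knockdown, against 3.98, 8.95, 4.71 and 7.25 CPM in ventral control. Cd52 stood at 3.83, 2.28 and 1.87 CPM in ventral knockdown, against 0.723, 8.69, 0.535 and 1.21 CPM in ventral control. The ventral groups overlapped for all 3 genes.

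Choroid plexus genes and 1 neuron gene differed in the same contrast. All 6 choroid plexus genes had a positive difference of effects (median 5.22), 4 of them at an unadjusted p under 0.05, against 2.79% of all tested genes. Their summed level was 81.4 to 269.9 CPM in dorsal knockdown and 37.7 to 391 CPM in dorsal control. It was 42.0 to 57.1 CPM in ventral knockdown, against 32.9, 69.3, 612 and 15271 CPM in ventral control 1 to 4. Wfs1, a gene of CA1 pyramidal neurons, stood at 263, 175 and 624 CPM in ventral knockdown, against 34.9, 78.2, 52.1 and 98.5 CPM in ventral control. It averaged 125 ± 26.3 CPM in dorsal knockdown and 231 ± 81.6 CPM in dorsal control (SD, n = 4 and 3; difference of effects -3.30 ± 0.60 SE, edgeR adjusted p = 0.499). Of the 10 neuron genes read, 3 had a positive and 7 a negative difference of effects (median -0.13). Wfs1 was the only 1 of them with an unadjusted p under 0.05. Ventral control 4 was the library highest in choroid plexus genes. Without it, 6 of the 35 microglia genes had an unadjusted p under 0.05 for the difference of effects. The share of all tested genes without that library is not given here, so the count has no background beside it. With every library kept the share was 2.79%. The part of dissection in the microglia values was not tested.

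Within the knockdown arm, 33 of the 35 genes had a positive dorsal over ventral value, against 47.9% of all tested genes, with a median log2 fold change of 0.55, against -0.01 over all tested genes. edgeR and DESeq2 each called 0 genes (0.0% of 14578 by edgeR). At an unadjusted p under 0.05, 4 of the 35 genes (11.4%) were higher in dorsal knockdown, against 1.28% of all tested genes, and 0 were lower, against 0.892%. The 4 were Itgb2 (1.01 ± 0.39 SE), Ptprc (1.07 ± 0.42 SE), Irf8 (1.44 ± 0.58 SE) and Trem2. Only Irf8 had no overlap (2.86% of the 35 genes, against 1.03% of all tested genes, with 0 and 0.713% on the lower side), with ventral knockdown at 5.55, 3.01 and 6.33 CPM. The count at an unadjusted p under 0.05 was 0 without dorsal knockdown 3, against 0.706% of all tested genes, and 1 without dorsal knockdown 4 or without ventral knockdown 4, against 0.803% and 1.42%. It was 7 without dorsal knockdown 2, against 2.12%, and 12 without dorsal knockdown 1 or without ventral knockdown 2, against 1.82% and 1.45%. The count with no overlap was 9 without dorsal knockdown 1, against 3.42% of all tested genes, 13 without ventral knockdown 2, against 3.34%, and 4 without the library labelled ventral knockdown 3, against 6.37%.

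Within the control arm the values lay nearer the background of all genes. Of the 35 genes 12 had a positive dorsal over ventral value, against 43.6% of all tested genes, and the median log2 fold change was -0.32, against -0.06 over all tested genes. edgeR called 0 of 14578 genes (0.0%), DESeq2 called 13 with 0 members among them, and 0 of the 35 genes had an unadjusted p under 0.05 in either direction, against 2.59% of all tested genes higher and 2.99% lower. Dorsal controls lay entirely below ventral controls for 2 of the 35 genes (5.71%), Ly86 and Lpl, against 3.73% of all tested genes, and entirely above for 0, against 5.54%. Ly86 stood at 4.90, 6.67 and 6.03 CPM in dorsal control, against 15, 26.6, 6.74 and 8.57 CPM in ventral control (-1.22 ± 0.58 SE, edgeR adjusted p = 0.731). Cd52 had -2.11 ± 1.06 SE and Ctss -0.87 ± 0.50 SE at the same adjusted p, and both were highest in ventral control 2. Ctss stood at 48.1, 54.4 and 37.4 CPM in dorsal control, against 69.9, 168, 41.5 and 62.8 CPM in ventral control. Without ventral control 2 the median was -0.02, and 2 genes lay entirely above, against 7.6% of all tested genes. The genes entirely below numbered 6 without ventral control 3 and 5 without dorsal control 2, against 9.02% and 7.21% of all tested genes.

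The set varied between libraries of 1 group. Dorsal knockdown 3 was the highest of the 14 libraries for 22 of the 35 genes, against 7.86% of all tested genes, and ventral control 1 was the lowest for 11, against 17.3%. The summed level of the 35 genes was 721, 1005, 1511 and 1092 CPM in dorsal knockdown 1 to 4, against 723, 655 and 533 CPM in dorsal control 1 to 3. It was 981, 686 and 673 CPM in ventral knockdown 2 to 4, against 631, 1023, 527 and 655 CPM in ventral control 1 to 4. Dorsal knockdown 1 thus lay within the dorsal control range, and ventral knockdown 2 and ventral control 2 each exceeded the rest of their group.

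**Figure D3:**
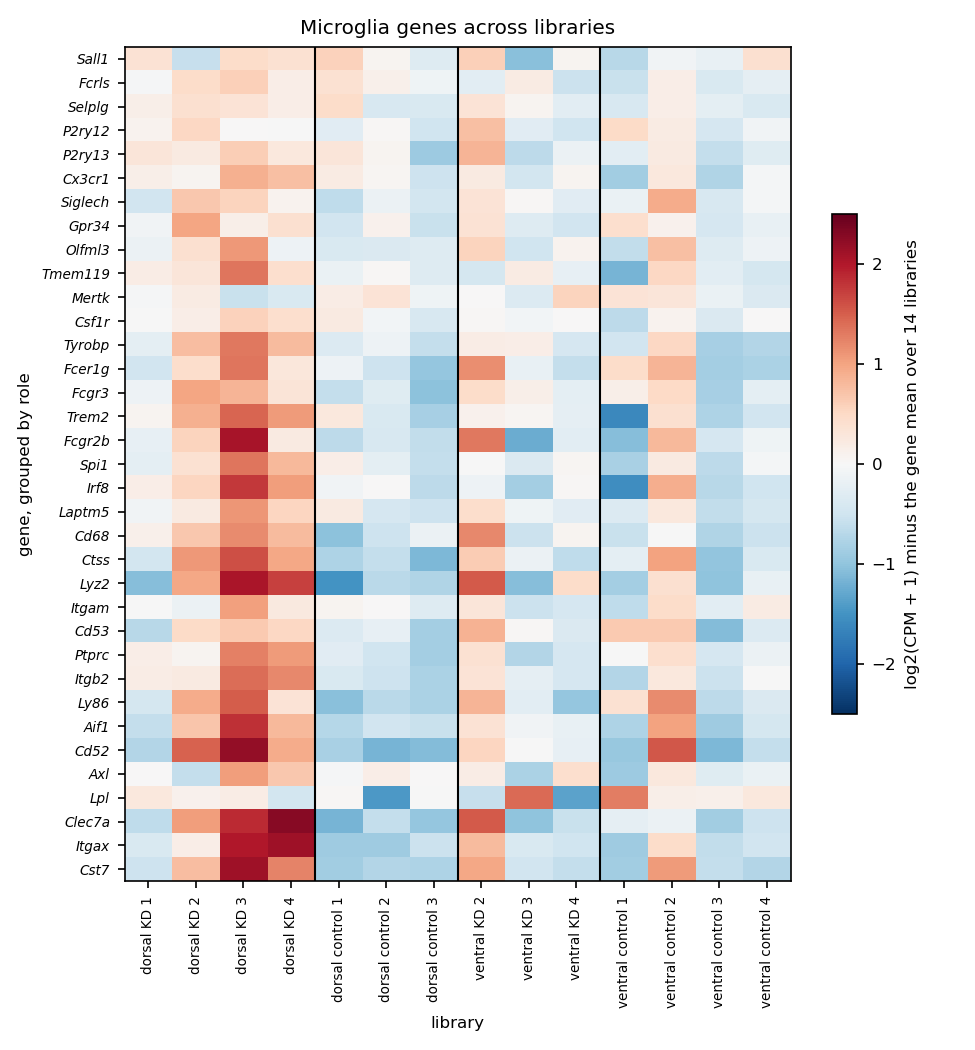
Log2(CPM + 1) of each of the 35 genes (rows, by role) in each library (columns, by group), as the difference from the gene's mean over 14 libraries. Dorsal knockdown 2 to 4, ventral knockdown 2 and ventral control 2 are above the mean for most genes, and dorsal controls are below it for most genes.

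The summed level of the 10 homeostatic genes was 254, 293, 386 and 301 CPM in dorsal knockdown, against 258, 230 and 175 CPM in dorsal control. The sum of Cst7, Itgax and Clec7a was 1.14, 6.79, 20.5 and 20.2 CPM in dorsal knockdown, against 0, 0.572 and 0.491 CPM in dorsal control. It was 10.2, 0.83 and 1.04 CPM in ventral knockdown, against 0.904, 5.37, 0.642 and 0.989 CPM in ventral control. With Axl and Lpl added, the sum of the 5 activated genes was 96.4, 78.5, 172 and 132 CPM in dorsal knockdown. In dorsal control this sum was 87.7, 74.0 and 88.1 CPM, and the groups overlapped. Relative to P2ry12, Cst7 averaged 0.102 ± 0.0987 in dorsal knockdown and 0.00219 ± 0.0019 in dorsal control (ratio of CPM, SD, n = 4 and 3). The ratio averaged 0.124 ± 0.121 and 0.00457 ± 0.00791 for Itgax, and 0.167 ± 0.145 and 0.00754 ± 0.00791 for Clec7a. Dorsal knockdown 1, at 0.0135 for both Itgax and Clec7a, lay within the control ranges, which reached 0.0137 and 0.0158. Its Cst7 ratio rested on 2 reads. The ratio differed little for Axl (2.35 ± 1.31 and 2.31 ± 0.321) and Lpl (1.05 ± 0.26 and 1.14 ± 0.659). The Ctss ratio was 5.05 ± 2.81 in dorsal knockdown and 1.88 ± 0.108 in dorsal control. Knockdown 1, at 1.89, lay within the control range of that ratio. That of Csf1r was 3.57 ± 1.06 in dorsal knockdown and 3.62 ± 0.821 in dorsal control.

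Genes of the same cells outside the set were read beside it. Of 20 other microglia genes, 20 had a positive value in the dorsal knockdown comparison (median log2 fold change 0.94). An unadjusted p under 0.05 was found for 14 of them, against 3.39% of all tested genes. C1qb, a complement subunit, averaged 113 ± 60.3 CPM in dorsal knockdown and 37.5 ± 7.66 CPM in dorsal control. Of 22 other activation genes 19 were tested and 19 were positive (median 1.06), 9 at an unadjusted p under 0.05, against the same 3.39%. Of the 19, Ccl4 stood at 1.28, 0.291, 1.96 and 1.61 CPM in dorsal knockdown 1 to 4. In dorsal control 1 to 3 it stood at 0.445, 0.0953 and 0 CPM. Genes such as Ccl4 passed the low-count filter with 0 dorsal controls above its level of 1.13 CPM, so their values are a description. Cd14, a co-receptor for bacterial lipopolysaccharide, averaged 4.46 ± 1.64 CPM in knockdown and 1.37 ± 0.438 CPM in control. Gpnmb, a lysosomal glycoprotein, averaged 23.2 ± 20.1 CPM in knockdown and 3.85 ± 1.80 CPM in control. Of 10 ligand genes of microglial receptors, 8 were positive with a median of 0.19, and Tgfb1 alone had an unadjusted p under 0.05 (0.84; 11.0 ± 2.65 CPM in knockdown and 6.0 ± 1.42 CPM in control).

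Interferon-response and reactive-astrocyte genes were high in most of the libraries in which the set was high. The summed level of 12 interferon-response genes was 50.8, 160.5, 1032 and 395 CPM in dorsal knockdown 1 to 4, against 54.3, 62.1 and 45.8 CPM in dorsal control. It was 184, 56.8 and 90.4 CPM in ventral knockdown 2 to 4, against 49.7, 706, 56.8 and 83.6 CPM in ventral control 1 to 4. The summed level of 8 reactive-astrocyte genes was 1273, 906.5, 4801 and 1531 CPM in dorsal knockdown, against 646, 454.5 and 401 CPM in dorsal control. It was 2103, 654 and 596 CPM in ventral knockdown, against 385, 1946, 479 and 760.4 CPM in ventral control. The interferon sum of dorsal knockdown 1 lay within the dorsal control range. In the dorsal knockdown comparison 12 of 12 and 5 of 8 of these genes had an unadjusted p under 0.05, against 3.39% of all tested genes. The dorsal groups stood apart on the higher side for 1 of 12 and 6 of 8, against 3.77%. Of the 6, Lcn2 stood at 0.1939 CPM in dorsal knockdown 2 and 0.1905 CPM in dorsal control 2. Steap4 stood at 0.2845 CPM in dorsal knockdown 1 and 0.2805 CPM in dorsal control 3. Both were below the low-count filter level of 1.13 CPM in every dorsal control, so their values are a description. The part of interferon-response and reactive-astrocyte genes in the values of the microglia genes was not tested.

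**Figure D4:**
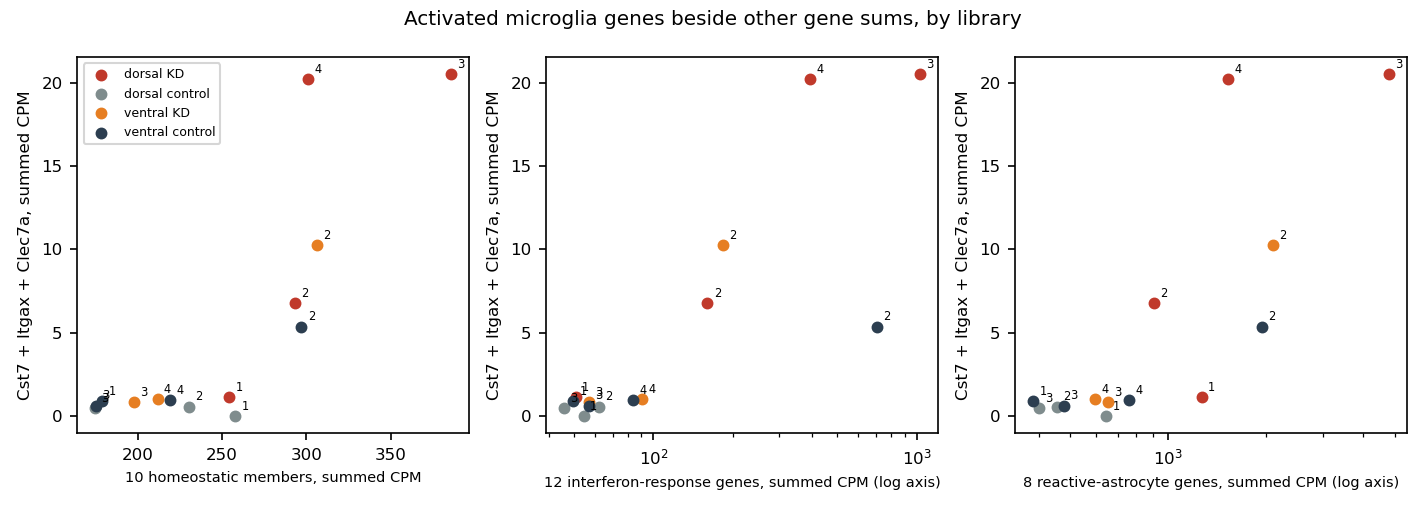
Summed CPM of Cst7, Itgax and Clec7a in each of 14 ethanol libraries against the summed CPM of 10 homeostatic genes, 12 interferon-response genes (log axis) and 8 reactive-astrocyte genes (log axis). Dorsal knockdown 3 and 4 stand highest at 20.5 and 20.2 CPM, and ventral knockdown 2 and ventral control 2 stand above the rest of their groups in every panel.

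Markers of other immune cells were read in the same libraries. The summed level of 8 border macrophage genes was 22.7 to 35.7 CPM in dorsal knockdown and 32.5 to 37.8 CPM in dorsal control, and 1 of 6 tested genes was positive (median log2 fold change -0.48). The 7 neutrophil genes summed to 0.873 to 2.14 CPM in dorsal knockdown and 0 to 1.34 CPM in dorsal control, where 3 of the 7 were at 0 in every library. The 12 lymphocyte genes summed to 3.27 to 21.3 CPM in dorsal knockdown and 2.67 to 4.28 CPM in dorsal control, where 5 of the 12 were at 0. Only 2 of the 12 were tested. Jchain, the joining chain of secreted antibodies, averaged 5.74 ± 3.04 CPM in knockdown and 0.259 ± 0.247 CPM in control. It was above the filter level of 1.13 CPM only in dorsal knockdown and ventral knockdown 2, so its value is a description. Lck averaged 1.99 ± 0.844 CPM in dorsal knockdown and 2.30 ± 0.618 CPM in dorsal control. The 6 monocyte genes summed to 63.8 to 139 CPM in dorsal knockdown and 90.4 to 115 CPM in dorsal control, where 1 of the 6 was at 0. Most of this sum was Fn1 and Vcan, so it says little about the other monocyte genes. Fn1 and Vcan stood at 106.9 and 22.8 CPM in dorsal knockdown 3, and at 90.02 and 20.29 CPM in dorsal control 2. Of the 6 monocyte genes 3 were tested, 2 of them positive and 1 negative (median log2 fold change 0.28). Ly6c2, a surface protein of inflammatory monocytes, averaged 1.77 ± 2.04 CPM in knockdown and 0.0234 ± 0.0405 CPM in control. It stood at 0, 0.291, 4.36 and 2.41 CPM in dorsal knockdown 1 to 4. It was above 1.13 CPM only in dorsal knockdown 3 and 4 and ventral control 2, so its value is a description. The part of these cells in the values of the microglia genes was not tested.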

How the data were processed

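Raw counts of reads per gene were deposited by the authors in 1 table of 24498 genes, 5 summary lines and 21 libraries. The submitters' processing notes name mm10, HTSeq 0.6.1p1 and STAR 2.5.2a. The strand setting and gene annotation are not given in the sources used here, and the summary lines were left out. Libraries with over 1000000 gene reads were used, and groups came from the sample titles.

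Tests on these counts used edgeR 4.0.16 and its quasi-likelihood F-test (R 4.3.3, TMM scaling, robust fit, filterByExpr minimum count 10). The model held 4 group means over 14 libraries and 14578 genes, and Benjamini-Hochberg adjustment ran over all tested genes at 0.05. Intervals are exact binomial at 95%. The fit was also run on simulated counts with 200 changed genes, and the outcome of that run is not given here. Gene positions and exon lengths came from GENCODE on the same build and promoters from RefSeq on GRCm38.p6, read in Python 3.11.15. The alternatives were RLE scaling, no low-count filter, DESeq2 1.42.0, all 20 grouped libraries, only the groups compared, the replicate number as a block and leaving out each library. The total-hippocampus library was in no comparison.

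The genes and lists were chosen with earlier results of these data known. Values in every library of the groups compared are given for P2ry12, Tmem119, Sall1, the 5 activated genes and the 3 genes with the smallest p in each comparison. From other lists, at most 2 genes with the smallest p in a comparison were named.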

Additional observations from a re-analysis of the deposited data

Results flagged for a closer look

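In groups of 4 libraries, a library was singled out where its gap to the nearest other exceeded Dixon's 95% critical share of the group's range. This was examined for 35 genes in 2 groups, and chance alone singles out about 1 group in 20. In dorsal knockdown, P2ry12 was highest in library 2 at 42.4 CPM, Tmem119 was highest in library 3 at 57.7 CPM and Sall1 was lowest in library 2 at 17.7 CPM. In ventral control, library 2 was highest for Aif1 at 11.0 CPM, for Cd52 at 8.69 CPM and for Cst7 at 2.81 CPM, and library 1 was highest for Lpl at 82.9 CPM.

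The untreated libraries were in no comparison. Untreated dorsal knockdown 1 (93311 gene reads) held 5 reads of Csf1r and 4 reads of Ctss, more than either untreated control, with 115467 and 221847 gene reads.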

How the results depend on the processing

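The genes called at an adjusted p under 0.05 included 0 of the 35 microglia genes in every comparison and under every alternative run. The count over all genes was 0 by edgeR and, by DESeq2, 11 in the dorsal knockdown comparison, 35 in the ventral one, 13 between dorsal and ventral controls and 9 for the difference of the knockdown effects. With all 20 libraries it was 1 in the ventral knockdown comparison and 1 for that difference. Leaving out each library gave 0 to 8 genes in the ventral knockdown comparison, 0 to 6 between controls (both highest without ventral control 1) and 0 to 2 for the difference of effects (highest without the library labelled ventral knockdown 3). The causes were not tested.

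The dorsal knockdown median of the set was 1.08 to 1.15 under the other settings and 0.76 to 1.35 when single libraries were left out, lowest without dorsal knockdown 3. Its count at an unadjusted p under 0.05 was 19 to 24 under the other settings and 13 to 24 when single libraries were left out. The share of all tested genes was 3.39% in the main fit and changed between fits. These ranges therefore do not by themselves measure how stable the set was.

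Each value whose sign turned was uncalled in every fit. Without single libraries, Sall1 in the dorsal comparison ran from -0.11 to 0.35 (-0.02 without dorsal knockdown 3). In the ventral comparison P2ry12 ran from -0.48 to 0.25, Tmem119 from -0.12 to 0.47, Sall1 from -0.30 to 0.47, Cst7 from -1.24 to 2.91, Itgax from -0.26 to 2.18, Clec7a from -0.96 to 2.23, Axl from -0.0022 to 0.54, Lpl from -1.49 to 0.21 and Acss2 from -0.60 to 0.0052. Ventral P2ry12 was -0.00561 with RLE scaling, -0.0059 with DESeq2 and -0.016 with all 20 libraries.

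The replicate number as a block gave 22 dorsal genes at an unadjusted p under 0.05 (20 without it), 12 in the dorsal over ventral comparison of knockdown (4 without it) and 11 for the difference of effects (6 without it). The shares of all tested genes were 3.57%, 2.085% and 3.005% with the block and 3.39%, 1.28% and 2.79% without it. It turned ventral P2ry12 to -0.0101 and left the calls at 0. Same-numbered libraries deviated from their group means with correlations of -0.22 to 0.37, which does not show that the numbers pair the libraries.

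Untreated libraries held 1 to 68 reads of the set, and the shallow ethanol libraries 4 and 10, too few for levels. In dorsal controls, 3 reads equal 0.210 to 1.34 CPM.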
